A study of Drosophila melanogaster with 16 samples.

Results

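Planar cell polarity genes were followed in Drosophila melanogaster embryos, as all probe sets annotated in the platform table to stan, fz, dsh, pk, Vang, ft, ds or fj. Of these 8 genes, 4 had a probe set, 1 each: stan, Vang, ds and fj, out of 10844 genes with a probe set and 13966 probe sets tested. The genes fz, dsh, pk and ft were not analysed here. Transcript levels were read from Affymetrix arrays at stage 11 in 4 groups of 4 deposited arrays. The sorted scagcm group held neuroectodermal cells of embryos that overexpressed glide/gcm (gcm), a transcription factor that directs neural cells to the glial fate. The sorted control group held the corresponding cells of wild-type embryos, the whole scagcm group held entire embryos that overexpressed gcm, and the whole control group held entire control embryos. The sorted cells bore mCD8-GFP, a transmembrane protein joined to green fluorescent protein, and were pulled out with anti-mCD8 microbeads once the embryos had been dissociated. Sorted cells and embryos thus also differed in handling. The sources used here do not state what drove gcm and mCD8-GFP, or how many embryos went into an array.

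Planar cell polarity is the alignment of cells within the plane of a tissue. In its core system, the atypical cadherin Starry night (also called Flamingo, encoded by stan) bridges neighbouring cells, with Frizzled and Dishevelled gathering at one face of a cell and Vang and Prickle at the opposite face. A parallel system rests on the giant cadherins Fat and Dachsous (ds), which bind each other across cell borders, and on Four-jointed (fj), a Golgi kinase that phosphorylates their cadherin domains. The system is best known from the hairs of the fly wing, while stan is also known for roles in the growth of axons and dendrites.

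On Release 6 of the genome, stan lay on chromosome arm 2R at 10673345 to 10721138 and spanned 47794 bases with its introns. Vang lay on 2R at 9103238 to 9106796 (3559 bases), ds on 2L at 640013 to 714983 (74971 bases) and fj on 2R at 18232761 to 18236311 (3551 bases). Levels are given as log2 of the normalised intensity plus 16, so that a level of 5 stands for an intensity of 16, near the background. Each gene's values come from its own probe set, and levels of different genes are not set against each other.

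The arrays sorted scagcm 2 and 3 were identical in all 14010 values and were counted as 1 array, which left 15 arrays with 3 in that group. Median intensities per array ran from 31.8 to 58.4, and the number of arrays limits the precision. The array labelled whole control 3 went against its label. Its profile over probe sets correlated at 0.653 to 0.728 with the other whole embryo arrays and at 0.913 to 0.944 with the sorted arrays. Its level of gcm was 13.10 and that of repo, a glial gene under gcm control, was 10.77. On the other arrays gcm ran from 13.01 to 13.13 in sorted scagcm cells, 11.25 to 12.07 in sorted control cells, 10.49 to 11.21 in whole scagcm embryos and 8.07 to 8.66 in whole control embryos. Without that array, gcm was higher by 1.43 in sorted scagcm than in sorted control cells (limma adjusted p = 0.0032), and by 2.35 in whole scagcm than in whole control embryos (limma adjusted p = 6.4e-05). With all 15 arrays gcm was called in neither comparison. Its differences were then 1.46 in sorted cells (limma adjusted p = 0.982) and 1.17 in whole embryos (limma adjusted p = 0.604). All results are therefore given with 15 arrays and again with this array left out. The labels do not say whether replicates were collected separately, so the p-values describe the spread among these arrays alone, which may be technical. In these bulk samples, fewer cells of a type and less RNA per cell cannot be told apart.

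The transcript of stan was far more abundant in the sorted cells than in whole embryos, in scagcm and in control material alike. In sorted scagcm cells its level was 9.55, 9.22 and 9.69, against 6.31, 6.16, 5.49 and 5.28 in whole scagcm embryos. In sorted control cells it was 10.16, 10.37, 10.19 and 10.50, against 6.39, 6.29 and 4.54 in whole control embryos 1, 2 and 4. The array labelled whole control 3 had 9.62, within the range of the sorted scagcm arrays. Every sorted array stood above every whole embryo array apart from that 1, and the lowest value, on whole control 4, lay under the level of 5. In order of level, sorted control cells came first, sorted scagcm cells next without overlap, and the whole embryo groups last, overlapping each other.

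**Figure D1:**
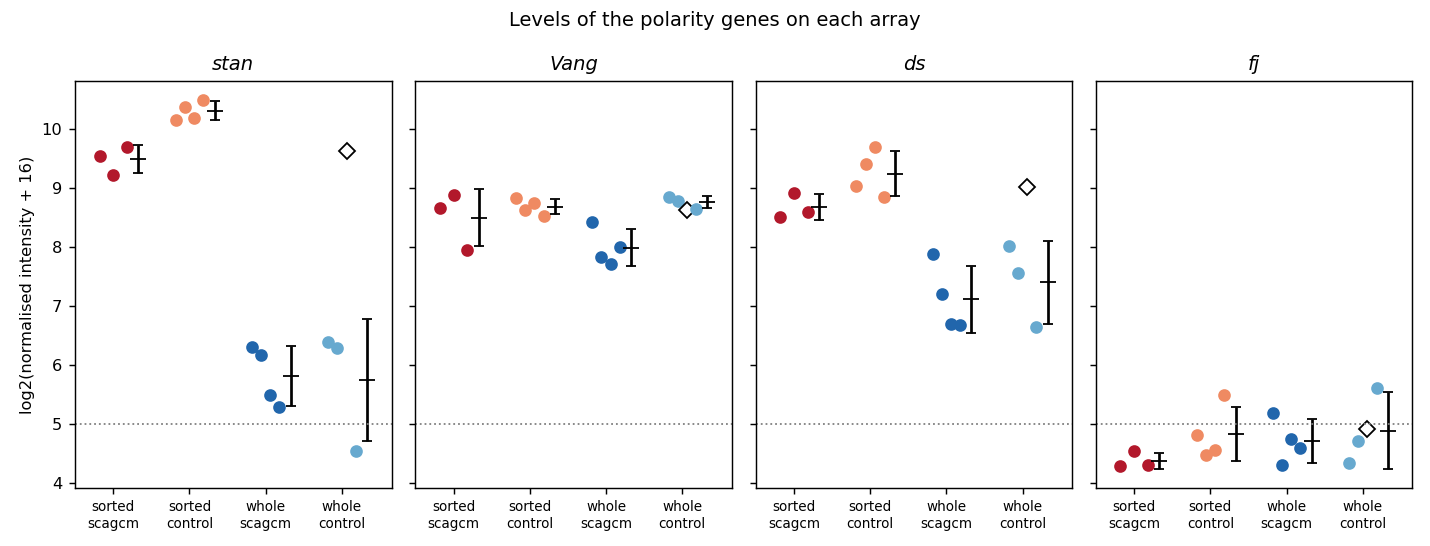
Levels of stan, Vang, ds and fj on each of 15 arrays, as log2 of the normalised intensity plus 16 on the vertical axis, for sorted scagcm, sorted control, whole scagcm and whole control arrays from left to right in each panel. Points are arrays, the open diamond is the array labelled whole control 3, the bars give the mean and SD of the other arrays of each group, and the dotted line marks a level of 5; stan is above 9 on all sorted arrays, while fj is under 5 on 12 arrays.

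The difference in stan was 3.68 (SE 0.75) between sorted and whole scagcm arrays, a 12.8-fold higher level in sorted cells (limma adjusted p = 0.0021). Without the array labelled whole control 3 it was 3.70 (SE 0.36), or 13-fold (limma adjusted p = 4.82e-07). Between sorted and whole controls it was 3.59 (SE 0.70), or 12.1-fold (limma adjusted p = 0.0061), and without that array 4.59 (SE 0.36), or 24.1-fold (limma adjusted p = 4.19e-08). By size of the difference, stan ranked 18 of 13966 probe sets in the scagcm comparison and 4 in the control comparison (5 without that array). The difference between controls was 2.86 without whole control 4, the array with the lowest level, and 2.89 with a pseudocount of 64 in place of 16. When only the 8 control arrays were fitted it was 3.56 and no longer called (limma adjusted p = 0.0724).

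The cadherin gene ds was also higher in sorted cells, by a smaller factor. Its level was 8.50, 8.92 and 8.58 in sorted scagcm cells, against 7.88, 7.21, 6.68 and 6.67 in whole scagcm embryos. Sorted control cells had 9.02, 9.41, 9.70 and 8.84, against 8.01, 7.56 and 6.63 in whole control embryos 1, 2 and 4, and 9.01 on the array labelled whole control 3. The scagcm groups did not overlap, and the control groups overlapped only through that array. The sorted scagcm level was 2.94-fold higher than in whole scagcm embryos, a difference of 1.56 (SE 0.44, limma adjusted p = 0.0116), and without that array the difference was 1.57 (SE 0.33, limma adjusted p = 9.22e-04). In controls the sorted level was 2.71-fold higher, a difference of 1.44 (SE 0.40, limma adjusted p = 0.0184), and 3.59-fold higher without that array, a difference of 1.85 (SE 0.33, limma adjusted p = 2.09e-04).

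With all 15 arrays the control result for ds depended on single arrays. The difference was 1.28 without sorted control 3 (limma adjusted p = 0.0529), 1.37 without whole control 2 (limma adjusted p = 0.0556) and 1.05 without whole control 4 (limma adjusted p = 0.0656). On the values as deposited it was 0.99 (limma adjusted p = 0.0980), and with only the control arrays fitted 1.42 (limma adjusted p = 0.0822). Without the array labelled whole control 3, ds was called under every alternative tried.

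No difference between sorted cells and whole embryos was detected for Vang or fj. Vang, a membrane protein of the core system, had a difference of 0.51 between sorted and whole scagcm arrays (95% interval 0.02 to 1.0, limma adjusted p = 0.0975), and 0.51 again without the array labelled whole control 3 (interval 0.07 to 0.95, limma adjusted p = 0.0566). This difference became 0.77 without sorted scagcm 4, the lowest of its group (limma adjusted p = 0.0222), and 0.66 without whole scagcm 1, the highest of its group (limma adjusted p = 0.0418). With array weights it was 0.52 and called (limma adjusted p = 0.0216). Between controls the difference in Vang was -0.04 (interval -0.49 to 0.42, limma adjusted p = 0.917), and -0.07 without the array labelled whole control 3 (interval -0.51 to 0.37, limma adjusted p = 0.799). These intervals do not reach the differences measured for stan or, in controls, those for ds.

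The level of fj was close to background throughout. Its deposited intensity was under 16 on 11 of 15 arrays and reached 35.7 at most. The levels ran from 4.28 to 4.53 in sorted scagcm cells, 4.47 to 5.48 in sorted control cells, 4.29 to 5.19 in whole scagcm embryos and 4.34 to 5.61 on whole control arrays, and the groups overlapped in every comparison. Between sorted and whole arrays the difference was -0.33 in scagcm (interval -0.95 to 0.29) and -0.06 in controls (interval -0.63 to 0.52), with limma adjusted p = 0.392 and 0.900. At such levels a change in fj was not detectable unless it raised the signal clearly above background.

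Thus 2 of the 4 genes, stan and ds, were called higher in sorted cells in both comparisons, with 15 arrays and with the array labelled whole control 3 left out. Of all probe sets tested, 36.9% were called in the scagcm comparison (19.5% higher in sorted cells) and 26.1% in the control comparison (12.8% higher). With that array left out the shares were 45.6% (24.7% higher) and 46.4% (24.9% higher). On the values as deposited, with no normalisation, 5.02% were called higher in the control comparison with 15 arrays. The groups did not overlap, with the sorted cells higher, for 27.3% of probe sets in scagcm and for 6.47% in controls, or 24.6% in controls with that array left out. A large share of the transcriptome thus differed between sorted cells and whole embryos, and the plot of all probe sets places stan near its upper end.

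**Figure D2:**
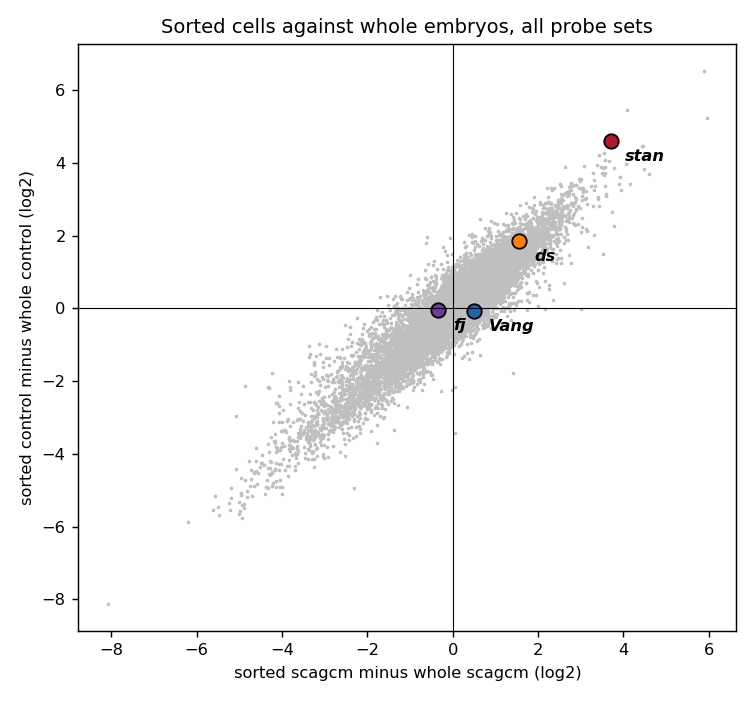
Difference in log2 level between sorted cells and whole embryos for all 13966 probe sets (grey points), in scagcm on the horizontal axis and in controls on the vertical axis, without the array labelled whole control 3. The coloured points are stan at 3.70 and 4.59, ds at 1.57 and 1.85, Vang at 0.51 and -0.07, and fj at -0.33 and -0.05.

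Gene length moved with the difference between sorted cells and whole embryos. In controls, 23.0% of the 1241 probe sets of genes of at least 26983 bases were called higher in sorted cells, against 5.0% of the 6197 probe sets of genes under 2745 bases. Without the array labelled whole control 3 these shares were 38.7% and 13.6%. Across 12398 probe sets, Spearman's rank correlation between length and difference was 0.34 in controls and 0.30 in scagcm, a description over probe sets that share the same arrays. The gene stan was longer than 95.1% and ds longer than 97.7% of them, while Vang and fj were longer than 57.9% and 57.8%. The part of length in the results for stan and ds was not tested.

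**Figure D3:**
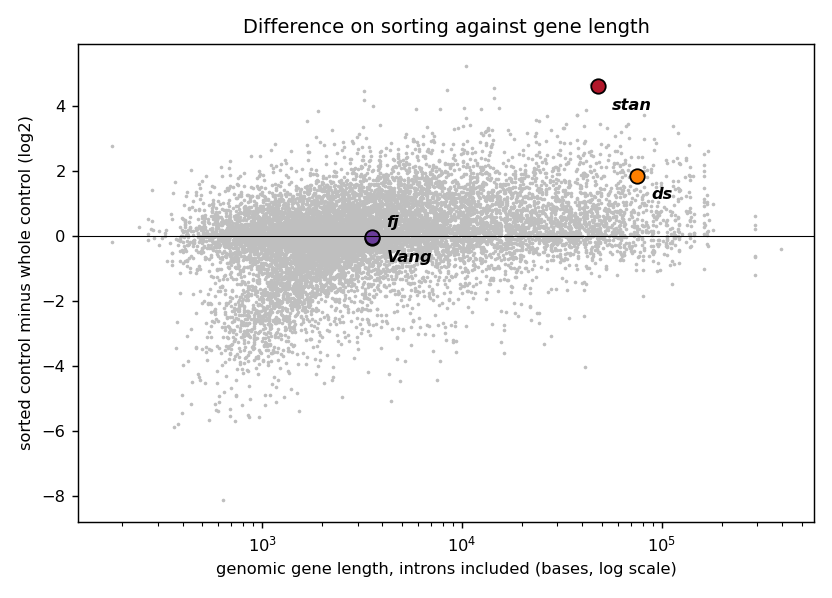
Difference in log2 level between sorted control and whole control arrays, without the array labelled whole control 3, against genomic gene length in bases on a log scale, for 12398 probe sets (grey points). The coloured points are stan (47794 bases) and ds (74971 bases) among the longest genes, at 4.59 and 1.85, and Vang and fj (3559 and 3551 bases) near 0.

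Cell content and the actin measure of RNA quality, but not that of eIF-4a, moved with sorting as well. The log2 ratio of the 3′ to the 5′ actin control probe sets was 1.89 ± 0.26 in sorted scagcm (SD, n = 3) and 0.85 ± 0.30 in whole scagcm arrays (SD, n = 4). It was 1.63 ± 0.06 in sorted control arrays (SD, n = 4), against 0.63 to 1.07 on whole control arrays 1, 2 and 4 and 1.85 on the array labelled whole control 3. For eIF-4a the same ratio averaged 0.98, 1.04, 1.08 and 1.10 in sorted scagcm, sorted control, whole scagcm and whole control arrays. Its ranges overlapped, at 0.90 to 1.05 in sorted and 0.86 to 1.17 in whole scagcm arrays. In controls they were 0.89 to 1.20 in sorted and 0.92 to 1.25 in whole arrays. The part of RNA quality in the results for stan and ds was not tested.

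The labelled cell type was checked against 9 of 11 neuroectoderm and neuroblast markers that had a probe set. Their summed normalised intensity was 5866 to 7560 in sorted scagcm and 4771 to 6903 in sorted control cells, against 2123 to 3788 in whole scagcm and 2308 to 3529 in whole control embryos without the array labelled whole control 3. That array had 5611. The single markers went both ways. Between controls 4 of the 9 were called higher and 2 lower in sorted cells, or 3 lower with that array left out, with a median difference of 0.31 (0.37 with it left out). Of all probe sets, 12.8% were called higher and 26.1% in either direction, with a median of 0.04. With that array left out these were 24.9%, 46.4% and 0.07. The summed markers of some other cells also stood higher in sorted material. The whole control ranges that follow again leave out the array labelled whole control 3. That array had 1966 for neuron, 2758 for tracheal, 1699 for mesoderm and 14983 for glial markers. With it kept, the mesoderm and glial sums of whole controls overlapped those of sorted controls. The 5 of 6 neuron markers measured summed to 2556 to 3160 in sorted scagcm and 4417 to 7482 in sorted control cells, against 271 to 525 in whole scagcm and 354 to 858 in whole control embryos. The 3 of 4 tracheal markers summed to 1728 to 2300 in sorted scagcm and 3298 to 3853 in sorted control cells, against 351 to 606 in whole scagcm and 406 to 654 in whole control embryos. The 6 of 9 mesoderm markers summed to 1378 to 1920 in sorted scagcm and 1189 to 1258 in sorted control cells, against 536 to 681 in whole scagcm and 706 to 825 in whole control embryos. The 7 glial markers, gcm and repo among them, summed to 13705 to 15469 in sorted scagcm and 5240 to 7458 in sorted control cells, against 2482 to 4063 in whole scagcm and 1101 to 1685 in whole control embryos. Within these sums the overexpressed gcm alone gave 8242 to 8932 in sorted scagcm and 2417 to 4269 in sorted control cells. It gave 1423 to 2358 in whole scagcm and 253 to 389 in whole control embryos. The 7 endoderm, yolk and amnioserosa markers summed to 916 to 1187 in sorted scagcm, against 499 to 977 in whole scagcm arrays, with overlap. In controls they summed to 1246 to 1631 in sorted cells, against 923 to 1188 in whole embryos, without overlap. The single markers went both ways between controls. There 2 of the 7 were called higher and 0 lower, with a median difference of 0.08. With the array labelled whole control 3 left out it was 2 higher and 1 lower, with a median of -0.24. The sums of hemocyte, epidermal and germ line markers overlapped between sorted cells and whole embryos in scagcm and in controls. Of the 7 epidermal markers, 2 were called higher and 3 lower in sorted than in whole controls, or 4 lower with the array labelled whole control 3 left out, where the median difference was -1.47. With 15 arrays, 4 of the 5 neuron, 3 of the 3 tracheal, 0 of the 6 mesoderm and 1 of the 7 glial markers were called higher between controls. With the array labelled whole control 3 left out these counts were 4, 3, 4 and 7, and 0 were called lower in either fit. The gene htl is in both the mesoderm and the glial list. The shares and medians of all probe sets between controls are those given above for the neuroectoderm markers. No marker was listed at 0 on every array of a group. The part of these cells in the levels of stan and ds was not tested.

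Overexpression of gcm was not accompanied by a called change in any of the 4 genes, in sorted cells or in whole embryos. The fit of 15 arrays did not call gcm itself in either comparison, while the fit without the array labelled whole control 3 did. In sorted cells 0.122% of all probe sets were called with 15 arrays and 0.773% with the array labelled whole control 3 left out. In whole embryos the shares were 0.0573% and 0.444%. At an unadjusted p under 0.05, none of the 4 passed in sorted cells with 15 arrays (5.56% of all probe sets did), and stan passed with that array left out (10.6% of all did). In whole embryos Vang passed in both fits, as did 11.2% and 11.6% of all probe sets.

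In sorted cells stan was lower in scagcm on every array, as its levels above show, with 9.22 to 9.69 in sorted scagcm against 10.16 to 10.50 in sorted control cells. The groups did not overlap, as for 4.45% of all probe sets in this direction. The difference was -0.82 (SE 0.75, limma adjusted p = 0.999), and without the array labelled whole control 3 again -0.82, with an SE of 0.36, a 95% interval of -1.59 to -0.05 and an unadjusted p of 0.0383 (limma adjusted p = 0.433). The same array is in neither sorted group, but the SE draws on the spread of all groups fitted. With only the sorted arrays fitted, stan was at -0.77 (SE 0.15, limma adjusted p = 0.0959), still not called. The differences of the other 3 genes had the same sign and overlapping groups. They were -0.57 for ds (interval -1.27 to 0.12 without that array), -0.46 for fj (interval -1.08 to 0.16) and -0.19 for Vang (interval -0.63 to 0.25), with limma adjusted p of 0.586, 0.641 and 0.846 without that array.

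In whole embryos Vang stood out among the 4 genes. Its level was 8.41, 7.82, 7.70 and 8.0 in whole scagcm embryos, against 8.85, 8.78, 8.62 and 8.64 on the whole control arrays, of which 8.62 belongs to the array labelled whole control 3. The groups did not overlap with that array or without it, as for 2.99% of all probe sets in this direction with 15 arrays and 6.97% without it. The difference was -0.74 (SE 0.21, 95% interval -1.19 to -0.28, limma adjusted p = 0.170), and -0.77 without that array (SE 0.21, interval -1.21 to -0.33, limma adjusted p = 0.103). It was called when the arrays were weighted by quality, at -0.85 (limma adjusted p = 0.0039), and at -0.92 when whole scagcm 1, the highest of its group, was also left out (limma adjusted p = 0.0226). In sorted cells Vang had 8.66, 8.87 and 7.95 in scagcm, against 8.83, 8.63, 8.74 and 8.53 in control cells, with overlap. In order of level the whole control, sorted control and sorted scagcm groups overlapped one another, and the whole scagcm group, the lowest, overlapped only the sorted scagcm group.

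In whole embryos the values of stan and ds differed between the fits with and without the array labelled whole control 3, and those of fj hardly did. The difference in stan was -0.90 with it (limma adjusted p = 0.652) and 0.07 without it (interval -0.71 to 0.84, limma adjusted p = 0.994). That in ds was -0.69 with it (limma adjusted p = 0.553) and -0.29 without it (interval -0.99 to 0.40, limma adjusted p = 0.890). That in fj was -0.19 and -0.18 (limma adjusted p = 0.815 and 0.951).

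**Figure D4:**
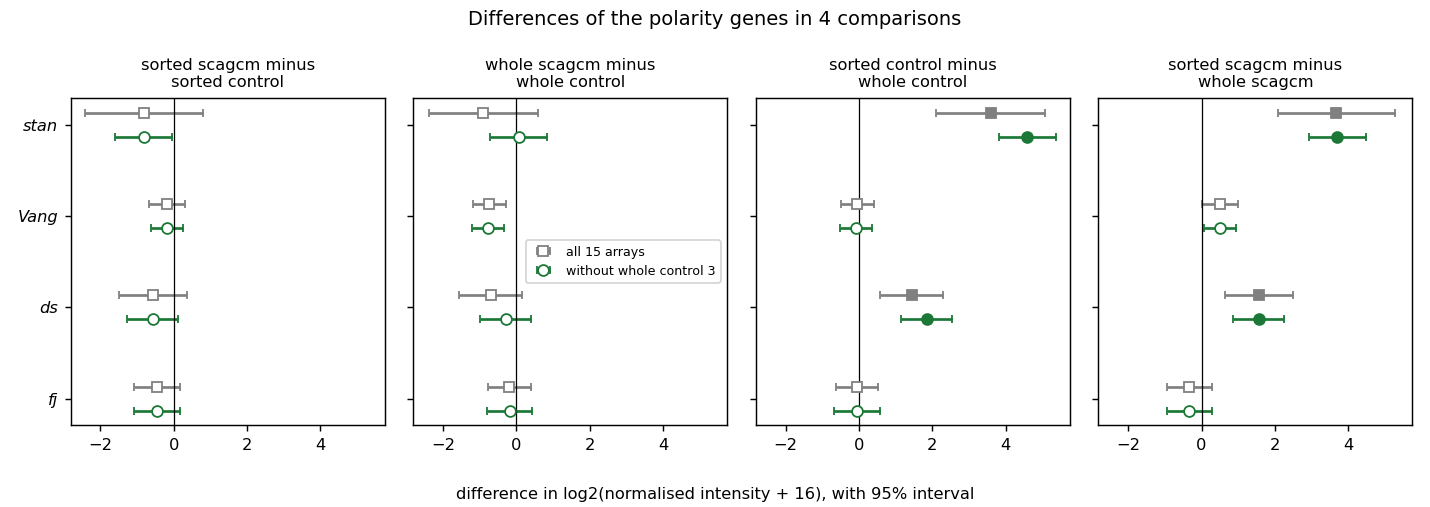
Differences in log2 level of stan, Vang, ds and fj in 4 comparisons, with 95% intervals, from all 15 arrays (grey squares) and without the array labelled whole control 3 (green circles). Filled symbols have a limma adjusted p under 0.05, which holds for stan and ds in both comparisons of sorted cells with whole embryos and for no gene in the comparisons of scagcm with control.

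Whether the gcm difference was unlike in sorted cells and whole embryos was tested as an interaction. None of the 4 genes was called by limma, against 0.00716% of all probe sets with 15 arrays and 0.0286% with the array labelled whole control 3 left out. None had an unadjusted p under 0.05 either, as 6.28% and 10.5% of all probe sets had. For Vang the difference in sorted cells minus that in whole embryos was 0.55 (limma adjusted p = 0.855), and 0.58 without that array (interval -0.04 to 1.21, limma adjusted p = 0.518). For stan it was 0.08 (limma adjusted p = 0.995), and -0.89 without that array (interval -1.98 to 0.20, limma adjusted p = 0.593). With that array kept, its sign also changed under some alternatives given in the closing section. The intervals of ds, -1.26 to 0.71, and of fj, -1.16 to 0.60, also contained 0 without that array.

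Partners of these genes were called in both directions between sorted cells and whole embryos. Of all probe sets, 26.1% were called between controls (12.8% higher) and 36.9% in scagcm (19.5% higher). With the array labelled whole control 3 left out these shares were 46.4% (24.9% higher) and 45.6% (24.7% higher). The counts below are to be read against them. Of 12 polarity partners and effectors, 9 had a probe set. Between controls 2 were called higher and 1 lower, with a median difference of 0.36 against 0.04 for all probe sets, and without the array labelled whole control 3 it was 3 higher and 2 lower, with medians of 0.41 and 0.07. In the fit without that array scrib, a scaffold of epithelial polarity, was higher by 2.03 and dgo, an ankyrin repeat protein of the core system, by 0.88. The kinase gene msn had a difference of -1.30 and Galphao, a G protein subunit that acts with Frizzled, of -0.75. In scagcm the same fit called 3 higher and 2 lower, with differences of 1.08 for scrib, 0.63 for frtz, -1.14 for msn and -1.11 for Galphao, and the fit of 15 arrays called 2 in each direction.

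Of 9 partners of Fat and Dachsous, 8 had a probe set, and between controls 3 were called higher and 2 lower, with a median of -0.23. Without the array labelled whole control 3, 4 were called in each direction, with a median of -0.25. The higher ones were Gug at 1.97, the Atrophin corepressor, app at 1.34, a palmitoyltransferase, Fbxl7 at 1.06, an F-box protein that binds Fat, and Dlish at 0.46, an SH3 protein. The lower ones included dco at -3.54, the casein kinase that phosphorylates Fat, wts at -1.37 and yki at -0.97, the kinase and the coactivator of the Hippo pathway. In scagcm 4 were called higher and 2 lower, or 3 lower without that array, and dco again had the most negative difference at -3.61.

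Among 13 other cadherins, 10 had a probe set, and most were higher in sorted cells. Between controls 5 were called higher and 1 lower, with a median of 1.03, and without the array labelled whole control 3 it was 7 higher and 1 lower, with a median of 1.47. In scagcm 7 were called higher and 1 lower in both fits, with a median of 1.40 without that array against 0.06 for all probe sets. Of all probe sets, 12.8% were called higher between controls and 19.5% in scagcm with 15 arrays. These shares were 24.9% and 24.7% without that array. Without that array, Cals, which encodes the neuronal cadherin Calsyntenin, was higher by 3.93 in scagcm and 3.61 in controls, and CadN, the neural N-cadherin, by 2.72 and 2.38. The 1 lower member was shg, the epithelial E-cadherin gene, at -2.34 in scagcm and -2.75 in controls. Of 12 Frizzled and Wnt family genes, Wnt6 alone had a probe set, with a difference of 0.69 between controls without that array (limma adjusted p = 0.0393) and 0.43 with 15 arrays (limma adjusted p = 0.292).

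**Figure D5:**
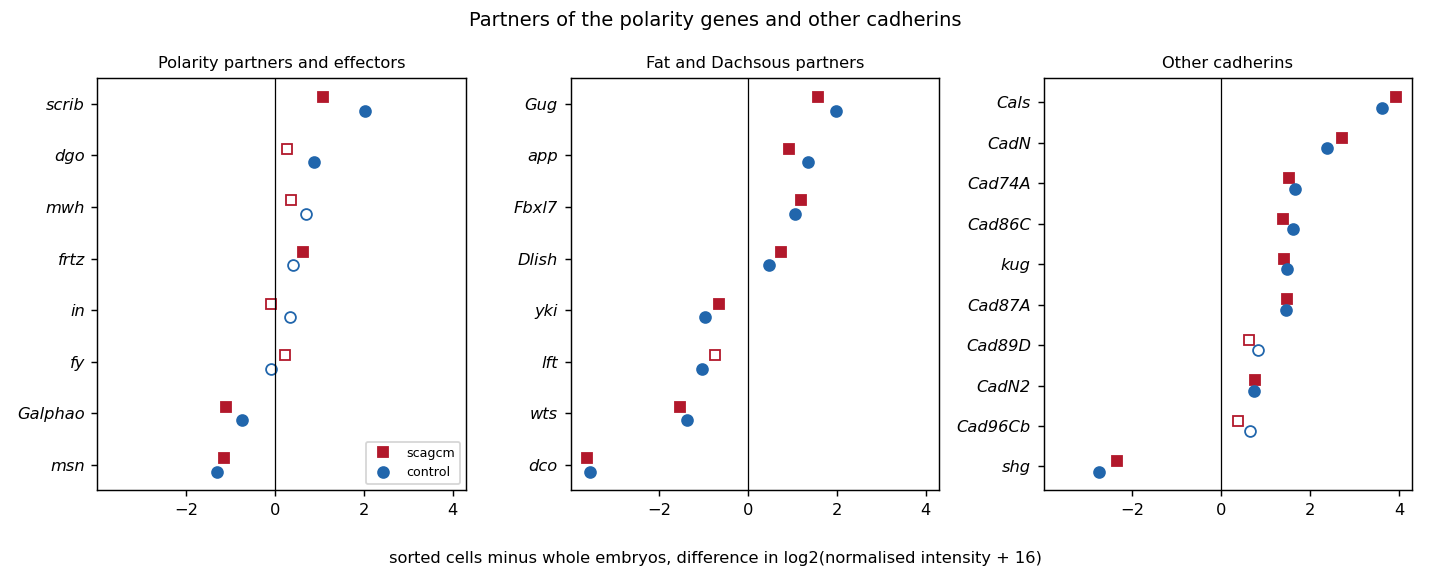
Differences in log2 level between sorted cells and whole embryos for 8 of the 9 measured polarity partners and for the measured Fat and Dachsous partners and other cadherins, in scagcm (red squares) and in controls (blue circles), without the array labelled whole control 3. Filled symbols have a limma adjusted p under 0.05; the range runs from dco at -3.61 to Cals at 3.93, and 7 of the 10 cadherins measured lie to the right of 0 with a call in both.

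None of the 28 measured members of these lists was called by limma between scagcm and control, in sorted cells, in whole embryos or as an interaction, in either fit. With 15 arrays, 2 had an unadjusted p under 0.05 in sorted cells, 3 in whole embryos and 0 in the interaction. These counts stand against 5.56%, 11.2% and 6.28% of all probe sets. They were 2, 5 and 3, against 10.6%, 11.6% and 10.5% of all, with the array labelled whole control 3 left out. The smallest p with 15 arrays belonged to msn in both, with a difference of 0.91 in sorted cells (limma adjusted p = 0.737) and 0.93 in whole embryos (limma adjusted p = 0.277).

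Over the 14 arrays that remain when the array labelled whole control 3 is left out, the pattern most like that of stan was that of spen, with a Pearson r of 0.997, followed by bun at 0.994. Within the 7 sorted arrays these r were 0.933 and 0.860, and within the 7 whole embryo arrays 0.963 and 0.939. For ds the closest were CG10011 at 0.983 and kis at 0.981, for Vang they were Tfb1 at 0.883 and Cap-G at 0.880, and for fj, near background, Shab at 0.914 and CG5342 at 0.866. These r were the highest of all named probe sets over arrays in separate clusters, and the arrays share preparation and scaling. Among the members, stan and ds had the same order over the 7 whole embryo arrays, with an r of 0.870 and 0.920 without the 2 arrays farthest from the median of stan, while their r over the 7 sorted arrays was 0.513. This pair is named because its r in whole embryos was the highest of all member pairs. For stan and fj the r was 0.612 over the sorted and -0.607 over the whole embryo arrays. The cause was not tested.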

How the data were processed

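Per the labels, Affymetrix Drosophila arrays were hybridised with RNA of sorted neuroectodermal cells or whole embryos at stage 11. The authors deposited 1 intensity per probe set on a linear scale. The sources used here do not state how they scaled them. The members and lists were chosen with earlier results of these data known. Distinct arrays were quantile normalised together, 16 was added and log2 taken. Groups were fitted with limma 3.58.1 in R 4.3.3, 1 mean per group over all arrays, moderating variances along the mean level. Two-sided p-values were adjusted by the Benjamini-Hochberg method over 13966 probe sets (44 array controls left out), and called under 0.05. A single symbol was annotated for 12443 probe sets, several for 327 and no symbol for 1196 in the platform annotation. Positions came from RefSeq's table of Release 6. All members were named, and from each list up to 4 called genes of the smallest p in a comparison (2 where none was called). Values given beyond that rule for Dlish, wts, yki, msn and Galphao were chosen after they were seen. For 1 polarity partner the values are not reported here, though it is in the counts. The steps were tested on simulated data.

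Replicate numbers of the titles were checked by correlating residuals. Every same-numbered pair exceeded 0.1 only between whole scagcm and whole control arrays without the array labelled whole control 3 (0.202 to 0.343, 3 pairs). Differently numbered pairs of these groups ran from -0.287 to 0.290, so the ranges overlapped. Alternatives were a pseudocount of 1 or 64, values as deposited, median centring, the dimmest 40% left out, no trend, array weights, only the groups compared, the replicate block and each array left out. Values as deposited, median centring, only the groups compared, the block and each array left out were also combined with leaving out the array labelled whole control 3, and its use throughout was decided with earlier results known.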

Additional observations from a re-analysis of the deposited data

Results flagged for a closer look

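Among the groups of 4 arrays, 18 combinations of gene and group were checked for 1 array far from the others, over stan, Vang, ds, fj and the check genes gcm and repo. Chance alone gives such a gap in about 5% of groups. The check found 3, none of them in a polarity gene. The level of gcm on whole scagcm 1 was 11.21, against 10.49 to 10.61 on the other whole scagcm arrays. On the array labelled whole control 3 the level of gcm was 13.10, while whole control 1, 2 and 4 had 8.07 to 8.66. The level of repo on that array was 10.77, against 6.14 to 6.32. The gaps in gcm and repo on the array labelled whole control 3 lie on an array known beforehand to stand apart. The count of 3 includes them and is therefore not to be read against the 5%. On the same array stan had 9.62, against 4.54 to 6.39 on whole control 1, 2 and 4, and did not meet the rule. No group of 3 was checked in this way.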

How the results depend on the processing

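Of 45 alternatives, 19 of them combined with leaving out the array labelled whole control 3, stan and ds were called higher in sorted than in whole scagcm arrays under all that were run. Between controls, 2 of the 4 genes were called with 15 arrays, 1 (stan) on the values as deposited, and 0 when only the arrays compared were fitted, where limma called 0 of all probe sets and 4291 had an unadjusted p under 0.05. There stan was at 3.56 (limma adjusted p = 0.0724) and ds at 1.42 (limma adjusted p = 0.0822). With 1 array left out in turn, alone or together with the array labelled whole control 3, the count ran from 1 to 2. Between whole scagcm and whole control it was 0, and 1 (Vang) with array weights, and with arrays left out in the same way it ran from 0 to 1, the 1 (Vang) arising without whole scagcm 1 and the array labelled whole control 3 together and 0 with any 1 array left out alone. Array weights also called Vang between sorted and whole scagcm arrays, at 0.52 (limma adjusted p = 0.0216). Scaling moved the split of all calls between controls. On the values as deposited 701 of 3473 were higher and the median of all probe sets was -0.14, with median centring 2590 of 4435 and 0.21, against 1786 of 3647 and 0.04 as reported, and with the array labelled whole control 3 left out 1776 of 6080 as deposited, against 3483 of 6478. Between sorted scagcm and sorted control, 18 of 21 calls were higher as deposited and 15 of 18 with median centring, against 12 of 17. Without that array these were 49 of 58 and 43 of 54, against 71 of 108. In whole embryos, 2 of 3 as deposited stood against 7 of 8, and without that array 14 of 27 against 51 of 62. The replicate block changed no call of the 4 genes. In whole embryos without the array labelled whole control 3 all same-numbered pairs exceeded 0.1, though the range of other pairs overlapped theirs. There Vang was at -0.73 or -0.79 with the block, as the twice-deposited array was numbered 2 or 3 (limma adjusted p = 0.131 and 0.0912).

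Some uncalled differences changed sign. For stan the interaction was -0.023 with a pseudocount of 64, -0.25 with array weights, -0.024, -0.021 and -0.091 without sorted scagcm 4, whole scagcm 3 or whole scagcm 4, and, without the array labelled whole control 3, -0.36 as deposited, -0.66 with median centring and -1.03 or -0.86 with the replicate block. In whole embryos stan was 0.00063 with median centring, 0.14 or 0.16 with the block and 0.059 with only the groups compared, all without that array. The ds interaction was -0.18 with median centring and -0.27 or -0.21 with the block, also without it. For fj, sorted minus whole control was 0.19 with median centring, 0.29 with that array also left out and 0.11 with array weights, and the whole embryo difference was 0.012 with array weights. With 1 array left out, alone or together with the array labelled whole control 3, the ranges were -1.21 to 0.82 for the stan interaction, -1.62 to 0.39 for stan in whole embryos, -0.59 to 0.51 for the ds interaction, -1.08 to 0.013 for ds in whole embryos, -0.32 to 0.31 for fj between controls, -0.45 to 0.18 for fj in whole embryos, -0.13 to 0.012 for Vang between controls and -0.38 to 0.083 for Vang in sorted cells. The cause was not tested. With the dimmest 40% left out fj had no value. The signal of fj over background limits what can be said of it.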
